A study of Homo sapiens with 4 samples.

Results

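Genes of fatty acid and glycerolipid synthesis were followed in Daoy cells, an established human medulloblastoma line, after knockdown of PELP1. The 35 genes were chosen by symbol for their place in the pathway, out of 23228 gene rows, and all 35 passed the filter on low counts. RNA was sequenced from cells with a stably expressed control shRNA (2 libraries) and from cells with a stably expressed PELP1 shRNA (2 libraries). Both constructs were carried by lentivirus, so the control cells were transduced too, and both groups grew in DMEM with fetal bovine serum. PELP1 is a large adaptor protein through which nuclear receptors contact other transcription regulators. Neither the number of shRNA sequences nor whether the duplicates came from separate cultures is given in the sources used here, so a p-value here reflects only how far these libraries spread, and that spread may be technical. All results are from 1 cell line.

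Cells build fatty acids from cytosolic acetyl-CoA, which ATP citrate lyase and acetyl-CoA synthetase supply, acetyl-CoA carboxylase commits to the pathway and fatty acid synthase turns into palmitate. Elongases then lengthen the chain and desaturases add double bonds, acyl-CoA synthetases activate the product, and acyltransferases, lipins and DGAT enzymes join acyl chains to glycerol to make phosphatidic acid, diacylglycerol and triacylglycerol. Triacylglycerol is stored in lipid droplets, whose surface carries perilipins and lipases. SREBF1 encodes SREBP-1, a transcription factor held in the endoplasmic reticulum membrane and released by proteolysis, which activates many of these genes. SREBF1 transcripts themselves are raised by active SREBP and by liver X receptors.

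The libraries held 24052542 to 29221640 counts in genes. The knockdown was seen in the PELP1 transcript, at 176.7 ± 12.01 in control cells and 52.64 ± 4.15 in knockdown cells (CPM, read counts scaled to a common library size; SD, n = 2 libraries). The log2 fold change was −1.75 ± 0.05 (standard error, SE; edgeR, FDR = 1.54e-33). Of 12 medulloblastoma and neural markers, 9 had enough counts to be tested, and the 12 together summed to 261.3 and 253.0 CPM in the control libraries, against 193.1 and 177.4 CPM in the PELP1 shRNA libraries. The neuronal tubulin TUBB3 carried the lower sum (145.3 and 164.3 against 78.12 and 78.30 CPM), and of the 9, 3 were called higher (ZIC2, OTX2 and PAX6) and 2 lower (TUBB3 and SOX2). ATOH1, BARHL1 and NEUROD1, markers of granule neuron precursors and their progeny, had at most 6 counts in any library. All 5 mesenchymal markers were called, COL1A2 lower by far (1467 and 1523 against 139.0 and 124.8 CPM), THY1 and VIM lower, and FN1 and COL1A1 higher. Such calls were common, with 28.6% of all genes tested called higher and 29.5% lower. Of 6 hepatocyte markers, ALB, APOA2, TTR and FGB were at 0 in all libraries, APOA1 had at most 5 counts, and SERPINA1, the only one tested, fell (26.06 and 24.83 against 15.64 and 15.17 CPM; edgeR FDR = 2.52e-11). The adipocyte markers ADIPOQ and LEP had at most 1 count in a library, whereas the 7 adipocyte markers together summed to 16.48 and 16.82 CPM with the control shRNA and 35.48 and 35.96 CPM with the PELP1 shRNA, of which PLIN4 and LPL made up nearly all. Only 3 of these 7 could be tested: PLIN4 and LPL were called higher, whereas FABP4, at low counts, was called lower (log2 fold change −5.11, edgeR FDR = 1.08e-07). The part of such markers in the results below was not tested. These are bulk libraries, in which fewer cells of a type and less RNA per cell cannot be told apart.

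SREBF1, the desaturases SCD and FADS2, the acyl-CoA synthetase ACSL3 and the lipid droplet gene PNPLA3 rose past 1.5-fold with the PELP1 shRNA, and the elongases ELOVL1 and ELOVL6 fell past it. Of the 35 genes, 17 were higher with the PELP1 shRNA at a false discovery rate (FDR, the Benjamini-Hochberg adjusted p over all 14972 genes tested) under 0.05, 11 were lower and 7 did not pass (edgeR quasi-likelihood test). Over all genes tested, 28.6% were called higher and 29.5% lower. The 48.6% of the 35 called higher lay above this background and the 31.4% called lower lay near it. As the 35 genes were chosen with earlier results of these data known, these shares describe the list and are no test of it. The count of lower genes was 7 with upper-quartile factors and 7 with library size alone, beside 18 and 19 higher; over all genes these scalings moved the share of higher among all calls from 49.1% to 57.9% and 63.2%. A test against a 1.5-fold change called 5 of the 35 higher and 2 lower, or 14.3% and 5.71%, against 4.74% and 4.9% of all genes. The 2 groups of libraries did not overlap for 31 of the 35 genes, or 88.6%, compared with 77.7% of all genes. The median log2 fold change was 0.07 over the 35 genes and 0.002 over all genes, and the median of its size regardless of sign was 0.31 against 0.26. The 35 genes were also more abundant, with a median control level of 43.15 CPM against 24.82 CPM over all genes tested. Among all genes with at least 5 CPM in 2 libraries, 64.5% were called in either direction, and 49.6% of those calls were higher. With that filter 34 of the 35 genes were tested and 25 were called, 17 higher and 8 lower.

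**Figure D1:**
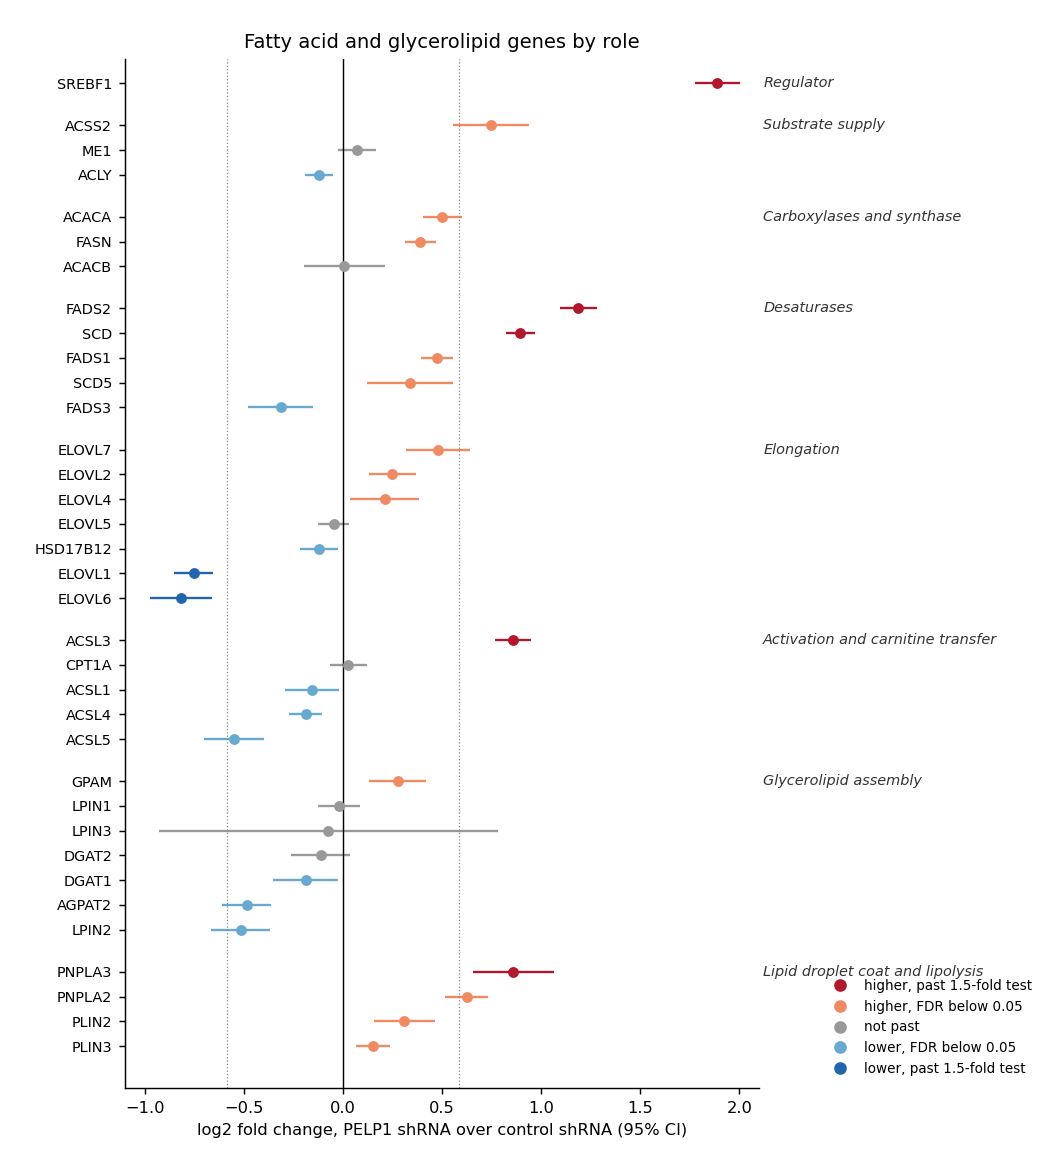
Log2 fold change (PELP1 shRNA over control shRNA, horizontal axis) of each of the 35 genes, ordered by role, with 95% confidence intervals from edgeR over 2 libraries a group; dotted lines mark a 1.5-fold change in either direction. SREBF1 lies farthest right at 1.89, the desaturases and lipid droplet genes lie mostly right of 0, and ELOVL6 lies farthest left at −0.82.

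Summed over the 35 genes, the level was 3076 and 3091 CPM in the control libraries, against 3713 and 3621 CPM in the PELP1 shRNA libraries, with no overlap. The share of all counts in genes was 0.299% in both control libraries, against 0.383% and 0.373% in the PELP1 shRNA libraries. The roles did not move as one. The 5 desaturases summed to 491.7 and 505.3 CPM with the control shRNA and to 877.1 and 867.2 CPM with the PELP1 shRNA, the widest gap of any role in CPM. The 3 genes of carboxylation and synthesis went from 447.3 and 474.1 CPM to 628.2 and 587.1 CPM. The 7 elongation genes summed to less with the PELP1 shRNA (575.0 and 555.5 against 501.6 and 520.5 CPM), and so did the 7 genes of glycerolipid assembly (233.4 and 232.4 against 209.9 and 206.7 CPM). A single high gene can carry such a sum, so the genes are given one by one below.

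Starts of the genes that passed the 1.5-fold test are shown first, since these genes moved most and SREBP acts at promoters together with the factors NF-Y and Sp1. RefSeq promoters (GRCh38.p14, 250 bases before to 50 after a start, 300 in all) matched 29 of the 35 genes, with 43 starts between them. They were searched on both strands for TCACNCCAC (the core of the sterol regulatory element), CACGTG (an E-box), CCAAT (the NF-Y box) and GGGCGG (the Sp1 box). Each sequence reads 5′ to 3′ along its gene, with every match to any of these 4 motifs in capitals, on whichever strand it lies. The windows are chr17:17836937-17837236 (minus strand) for SREBF1, chr10:100346983-100347282 (plus) for SCD, chr11:61816154-61816453 (plus) for the downstream of the pair of FADS2 starts, chr2:222860786-222861085 (plus) for ACSL3, chr1:43367962-43368261 (minus) for ELOVL1 and chr4:110198566-110198865 (minus) for ELOVL6.
SREBF1: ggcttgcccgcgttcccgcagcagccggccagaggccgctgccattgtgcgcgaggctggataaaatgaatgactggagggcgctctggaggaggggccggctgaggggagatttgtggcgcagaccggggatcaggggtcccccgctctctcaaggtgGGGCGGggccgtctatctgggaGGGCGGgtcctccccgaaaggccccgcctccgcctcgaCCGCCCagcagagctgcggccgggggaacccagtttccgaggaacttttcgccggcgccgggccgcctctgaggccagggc
SCD: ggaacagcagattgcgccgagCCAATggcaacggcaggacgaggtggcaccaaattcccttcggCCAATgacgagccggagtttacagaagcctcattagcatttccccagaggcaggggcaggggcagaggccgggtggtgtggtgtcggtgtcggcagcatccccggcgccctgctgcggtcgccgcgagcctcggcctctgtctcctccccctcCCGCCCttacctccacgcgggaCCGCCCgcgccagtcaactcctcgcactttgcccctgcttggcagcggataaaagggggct
FADS2: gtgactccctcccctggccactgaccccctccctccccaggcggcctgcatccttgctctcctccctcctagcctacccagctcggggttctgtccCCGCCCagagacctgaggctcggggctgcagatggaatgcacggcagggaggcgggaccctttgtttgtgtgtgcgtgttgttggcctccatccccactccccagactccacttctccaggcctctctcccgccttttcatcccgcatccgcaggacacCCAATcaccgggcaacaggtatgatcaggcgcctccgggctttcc
ACSL3: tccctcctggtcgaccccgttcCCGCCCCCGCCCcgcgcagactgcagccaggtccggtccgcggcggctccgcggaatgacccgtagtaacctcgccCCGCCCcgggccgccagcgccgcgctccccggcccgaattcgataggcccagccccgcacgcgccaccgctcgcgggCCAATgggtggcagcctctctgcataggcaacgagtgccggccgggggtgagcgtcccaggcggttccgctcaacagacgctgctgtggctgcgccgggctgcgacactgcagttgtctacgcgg
ELOVL1: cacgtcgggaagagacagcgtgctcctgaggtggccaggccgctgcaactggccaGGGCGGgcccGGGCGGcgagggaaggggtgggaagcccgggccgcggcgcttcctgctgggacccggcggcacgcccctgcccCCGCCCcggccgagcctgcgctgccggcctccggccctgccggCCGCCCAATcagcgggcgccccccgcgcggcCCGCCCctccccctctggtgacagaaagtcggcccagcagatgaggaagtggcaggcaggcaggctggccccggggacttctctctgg
ELOVL6: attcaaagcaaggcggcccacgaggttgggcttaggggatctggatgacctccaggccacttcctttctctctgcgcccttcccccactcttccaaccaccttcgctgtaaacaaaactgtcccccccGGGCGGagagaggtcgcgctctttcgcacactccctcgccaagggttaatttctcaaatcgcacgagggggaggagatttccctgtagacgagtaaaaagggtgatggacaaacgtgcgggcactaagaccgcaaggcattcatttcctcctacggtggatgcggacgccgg

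None of these 6 windows holds TCACNCCAC or CACGTG as spelled. CCAAT lies in SCD with its first base at −229 and again at −186 from the start, in ACSL3 at −75, in FADS2 at 5 and in ELOVL1 at −65, where it overlaps a match to the Sp1 box that begins at −69. The SREBF1 and ELOVL6 windows carry only matches to the Sp1 box, which in SREBF1 begin at −91, −69 and −31. For SREBF1 only the printed start was matched, and starts of its other transcripts were not searched. SCD, FADS2 and ACSL3, which rose, and ELOVL1, which fell, all hold both CCAAT and GGGCGG in these windows. The window of the upstream FADS2 start (chr11:61815953-61816252, plus strand), not printed because it holds none of the 4 motifs, differs in this. Among the 29 matched genes, 15 held CCAAT (51.7%, against 43.3% of the 10201 tested genes in the table and 34.6% of its 35116 promoters). GGGCGG was found in 26 (89.7%, against 76.2% of tested genes and 45.0% of promoters), and CACGTG in 4 (13.8%, against 12.5% and 7.26%), namely ELOVL4, ELOVL5, LPIN2 and PLIN2. TCACNCCAC was found in ACSL1 and PNPLA2 alone (6.9%, against 1.55% and 1.13%). A match describes letters in the window and no site of binding. FASN, HSD17B12, LPIN3, DGAT1, DGAT2 and PNPLA3 were unmatched.

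SREBF1, the regulator, showed the largest rise of the 35 genes. It stood at 29.99 and 30.63 CPM in the control libraries, against 114.7 and 109.8 CPM in the PELP1 shRNA libraries. The lowest PELP1 shRNA library lay far above the highest control library. The log2 fold change was 1.89 ± 0.06 (SE; 95% interval 1.78 to 2.00), a 3.70-fold rise (edgeR, FDR = 5.52e-39; against 1.5-fold, FDR = 3.10e-31). Of 11325 genes with at least 5 CPM on average, 21 had a higher log2 fold change, or 0.185%. SREBF1 lies on chromosome 17 (hg19, 17713713 to 17740316, minus strand), where 556 of its exonic bases overlap exons of RAI1 on the opposite strand, and the strand setting of the counting is not given in the sources used here. RAI1 itself had a log2 fold change of 0.17. Counts per gene do not separate the SREBP-1a and SREBP-1c transcripts.

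SREBF2, which encodes the sterol-sensitive paralogue SREBP-2, rose less, from 136.2 ± 3.25 to 203.9 ± 7.63 CPM (SD, n = 2), or by 0.58 ± 0.04 on the log2 scale (edgeR FDR = 2.47e-19). Per kilobase of transcript, the SREBF1 level was 23.9% and 23.6% of the SREBF2 level in the control libraries, against 58.6% and 59.1% in the PELP1 shRNA libraries. The proteins that retain or release SREBP were mixed. INSIG1, which holds the SREBP escort in the endoplasmic reticulum and is itself an SREBP target, rose from 61.91 ± 0.17 to 177.5 ± 0.72 CPM (SD, n = 2; 1.52 on the log2 scale, edgeR FDR = 2.66e-38). Its paralogue INSIG2 had a log2 fold change of 0.19 (FDR = 0.0414), a call lost in 6 of 10 alternative settings (FDR from 0.00234 to 0.217). SCAP, the escort, did not pass (59.37 and 57.14 CPM on average; log2 fold change −0.06, edgeR FDR = 0.402). The site-1 and site-2 proteases that cut SREBP fell, MBTPS1 by 0.17 (FDR = 5.35e-04) and MBTPS2 by 0.49 (FDR = 3.39e-10) on the log2 scale. The MBTPS1 call was lost with library size alone as the scaling (FDR = 0.0997, the highest of its 10 alternatives, the lowest being 6.49e-04). Over the whole list of 14 genes of SREBP processing and sterol sensing, 9 rose and 3 fell (with library size alone, 1 fell), and the median log2 fold change was 0.32. The shares called higher and lower were 64.3% and 21.4%, against 28.6% and 29.5% of all genes tested. Past 1.5-fold were 3 of the risen genes, or 21.4% of the list, against 4.74% of all genes tested. Besides INSIG1 these were MYLIP, a ligase that marks the LDL receptor for breakdown and is a target of liver X receptors (8.97 to 22.03 CPM; log2 fold change 1.3), and the early sterol synthesis enzyme HMGCS1 (49.81 to 91.34 CPM; 0.88).

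The genes of substrate supply went 3 ways. ACLY, the ATP citrate lyase and the highest of the 35 genes per kilobase in both groups, stood at 549.5 and 554.9 CPM with the control shRNA and 524.4 and 491.9 CPM with the PELP1 shRNA (log2 fold change −0.12 ± 0.04, edgeR FDR = 0.00294). This small fall was lost with upper-quartile factors, with library size alone and without PELP1 shRNA replicate 2 (FDR from 0.00258 to 0.474 over 10 alternatives). ACSS2, which makes acetyl-CoA from acetate, was at 11.12 and 10.77 CPM with the control shRNA and 19.42 and 17.23 CPM with the PELP1 shRNA. It rose by 0.75 ± 0.10 on the log2 scale (edgeR FDR = 7.91e-10) without passing the test against 1.5-fold (FDR = 0.123). ME1, the malic enzyme that supplies NADPH, had a log2 fold change of 0.07 (FDR = 0.201; 95% interval −0.02 to 0.16) and gained a call as higher under upper-quartile scaling and under library size alone (lowest FDR = 0.00256, highest of the 10 alternatives 0.40). ACSS2 made up 2.93% and 2.81% of the summed level of both acetyl-CoA makers per kilobase in the control libraries, against 5.22% and 4.96% in the PELP1 shRNA libraries.

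FASN and ACACA rose, both by less than 1.5-fold. FASN, the fatty acid synthase, was at 366.1 and 393.6 CPM in the control libraries, against 519.5 and 477.0 CPM in the PELP1 shRNA libraries. The groups did not overlap, and the log2 fold change was 0.39 ± 0.04 (SE; 95% interval 0.31 to 0.47; edgeR FDR = 2.34e-12). ACACA, the cytosolic acetyl-CoA carboxylase, went from 68.67 ± 1.76 to 97.17 ± 0.46 CPM (SD, n = 2; 0.50 on the log2 scale, edgeR FDR = 1.27e-13). ACACB, the mitochondrial isoform whose product restrains fatty acid oxidation, had libraries that overlapped between groups (11.25 and 13.06 against 11.90 and 12.59 CPM) and a log2 fold change of 0.01 (FDR = 0.964; 95% interval −0.20 to 0.21). The rise of SREBF1 was therefore larger than that of the synthase or of either carboxylase, with 95% intervals that do not meet.

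**Figure D2:**
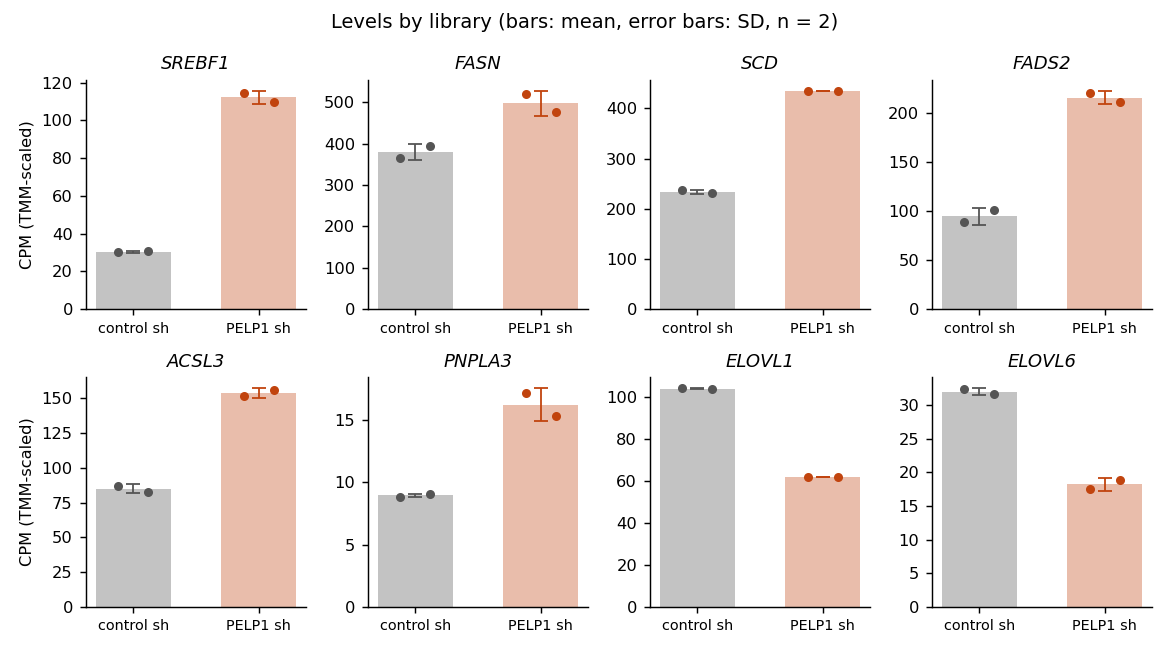
Level in CPM (vertical axis, starting at 0) of 8 genes in each of the 4 libraries, with bars at the mean of 2 libraries and error bars of 1 SD. SREBF1, FASN, SCD, FADS2, ACSL3 and PNPLA3 are higher in both PELP1 shRNA libraries than in either control library, and ELOVL1 and ELOVL6 are lower.

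Of the 5 desaturases, 4 were called higher and 1 lower (80% and 20%, against 28.6% and 29.5% of all genes tested). SCD, the stearoyl-CoA desaturase that makes monounsaturated acyl chains, stood at 236.7 and 231.0 CPM with the control shRNA and at 435.1 and 434.7 CPM with the PELP1 shRNA. Both pairs were tight and far apart, with a log2 fold change of 0.90 ± 0.04 (SE; edgeR FDR = 2.47e-31; against 1.5-fold, FDR = 1.37e-11). SCD lies on chromosome 10 (hg19, 102106990 to 102124583, plus strand) and shares no exonic base with another annotated gene. Its paralogue SCD5, a further stearoyl-CoA desaturase, averaged 8.89 and 11.21 CPM (log2 fold change 0.34 ± 0.11, edgeR FDR = 0.00636), and its call was lost with DESeq2, without control shRNA replicate 2 and without PELP1 shRNA replicate 1 (FDR from 4.36e-04 to 0.11 over 10 alternatives). SCD held 93.8% and 93.9% of the level of the pair per kilobase in the control libraries, against 95.7% and 95.8% in the PELP1 shRNA libraries.

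The FADS genes, a cluster on chromosome 11 that desaturates polyunsaturated chains, split. FADS2 was at 88.48 and 100.8 CPM in the control libraries, against 220.6 and 210.7 CPM in the PELP1 shRNA libraries. This 2.28-fold rise was the largest among the enzymes (log2 fold change 1.19 ± 0.05, SE; edgeR FDR = 8.82e-29; against 1.5-fold, FDR = 3.30e-17). Its neighbour FADS1 went from 137.9 ± 4.08 to 191.6 ± 0.53 CPM (SD, n = 2; 0.47 on the log2 scale, edgeR FDR = 1.04e-15). FADS3, whose product acts on sphingoid bases, fell from 23.28 ± 1.10 to 18.75 ± 0.17 CPM (SD, n = 2; −0.31, edgeR FDR = 7.70e-04). The 95% intervals of FADS1 (0.39 to 0.56) and FADS2 (1.09 to 1.28) do not meet. The FADS2 starts matched in RefSeq (GRCh38.p14) lie 599 and 800 bases from the FADS1 start, and from these starts the genes are read toward each other. Which FADS2 start these cells use was not tested, and starts outside this match were not considered. The printed FADS2 window ends short of the FADS1 start, while the FADS3 start is 75141 and 75342 bases from the matched FADS2 starts. In hg19, 490 exonic bases of FADS1 and FADS2 overlap on opposite strands, and their reads there cannot be told apart if the counting ignored strand. Per kilobase, the share of FADS2 in the summed level of the 3 genes went from 39.7% and 41.6% in the control libraries to 56.8% and 55.6%, and FADS1, the higher gene in the first control library, was below FADS2 in both PELP1 shRNA libraries.

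The elongation genes divided evenly, with 3 higher, 3 lower and 1 that did not pass. The share in each direction was 42.9%, against 28.6% higher and 29.5% lower of all genes tested. ELOVL1, the elongase of saturated very-long chains used in sphingolipids, was at 104.2 and 104.1 CPM in the control libraries, against 61.81 and 61.83 CPM in the PELP1 shRNA libraries. It fell by 0.75 ± 0.05 on the log2 scale (SE; edgeR FDR = 5.15e-21; against 1.5-fold, FDR = 0.00175). ELOVL6, which extends palmitate to stearate and so feeds SCD, was at 32.35 and 31.67 CPM with the control shRNA and at 17.50 and 18.90 CPM with the PELP1 shRNA. Its fall of 0.82 ± 0.08 on the log2 scale (SE; edgeR FDR = 3.23e-14; against 1.5-fold, FDR = 0.00593) was the largest of the 35 genes, and it ran opposite to that of SCD, SREBF1 and FASN. Both falls kept their FDR call in all 10 alternatives other than an assumed larger variation. The calls past 1.5-fold were lost with DESeq2 (FDR = 0.176 for ELOVL1 and 0.595 for ELOVL6) and with library size alone (0.151 and 0.0932), and for ELOVL6 without PELP1 shRNA replicate 1 (0.116). Over all alternatives the FDR against 1.5-fold ran from 5.19e-05 to 0.881 for ELOVL1 and from 0.00256 to 0.733 for ELOVL6. ELOVL1 lies on chromosome 1 (hg19, 43829069 to 43833745) with no overlapping exon. ELOVL6 lies on chromosome 4 (hg19, 110967002 to 111120355), where 240 exonic bases overlap an unnamed gene model on the other strand.

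Of the other elongases, ELOVL7 rose from 18.36 to 25.57 CPM on average (0.48 on the log2 scale, edgeR FDR = 6.39e-07) and ELOVL2, which acts on polyunsaturated chains, from 43.15 to 51.23 CPM (0.25, FDR = 2.85e-04). ELOVL4, the elongase of the longest chains, had a log2 fold change of 0.21 at 17.02 and 19.65 CPM (FDR = 0.0344), lost in 4 of 10 alternatives (FDR from 0.00199 to 0.288). ELOVL5, the other elongase of polyunsaturated chains and the highest elongase per kilobase in both groups, had libraries that overlapped between groups (255.3 and 244.7 against 235.7 and 248.4 CPM; FDR = 0.305). HSD17B12, the reductase of the elongation cycle, was at 100.5 and 92.55 CPM on average (log2 fold change −0.12, edgeR FDR = 0.0292), a call lost in 7 of 10 alternatives (FDR from 0.0159 to 0.616). ELOVL1 made up 37.4% and 38.4% of the summed level of the 6 ELOVL genes per kilobase in the control libraries, against 27.0% and 26.3% in the PELP1 shRNA libraries, and ELOVL5 went from 48.6% and 47.9% to 54.5% and 56.0%.

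**Figure D3:**
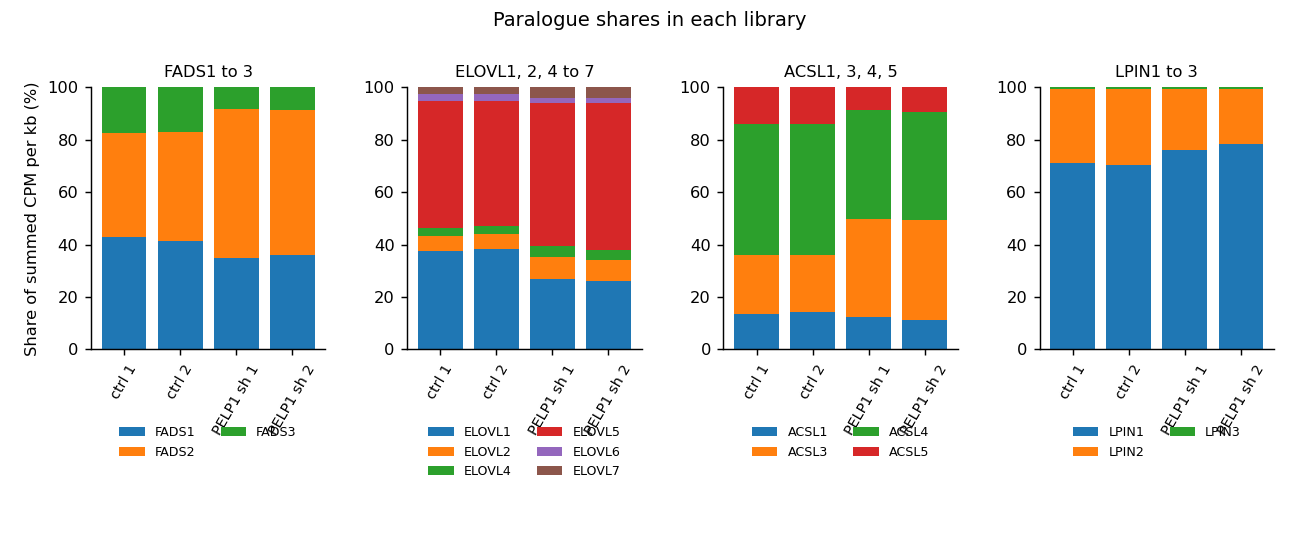
Share (percent, vertical axis) of each paralogue in the summed CPM per kilobase of its family, in each of the 4 libraries, for the FADS, ELOVL, ACSL and lipin genes. The shares of FADS2 and ACSL3 are larger in both PELP1 shRNA libraries, near 56% and 38%, and those of FADS3, ELOVL1, ACSL5 and LPIN2 are smaller.

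Among the acyl-CoA synthetases, which activate fatty acids for all later uses, ACSL3 rose and the other 3 had lower levels. ACSL3, a form found on the endoplasmic reticulum and on growing lipid droplets, was at 87.16 and 82.67 CPM in the control libraries, against 151.5 and 156.3 CPM in the PELP1 shRNA libraries. The groups lay well apart, with a log2 fold change of 0.86 ± 0.05 (SE; edgeR FDR = 1.72e-25; against 1.5-fold, FDR = 2.28e-07). It lies on chromosome 2 (hg19, 223725660 to 223809357), where its antisense RNA gene covers 403 of its exonic bases. ACSL5 fell from 31.46 ± 1.01 to 21.51 ± 1.499 CPM (SD, n = 2; −0.55, edgeR FDR = 5.62e-09) and ACSL4, which prefers arachidonic acid, from 168.3 ± 5.73 to 147.9 ± 0.34 CPM (SD, n = 2; −0.19, FDR = 1.08e-04). ACSL1 averaged 35.72 and 32.05 CPM (log2 fold change −0.15, FDR = 0.0474), a call lost in 9 of 10 alternatives (FDR from 0.0192 to 0.45). ACSL4 stayed the highest of the 4 per kilobase, but its share went from 50.1% and 49.8% to 41.6% and 41.2% as that of ACSL3 went from 22.2% and 21.96% to 37.3% and 38.2%. CPT1A, which passes acyl groups to carnitine for oxidation in mitochondria, was at 103.6 and 105.7 CPM on average and did not pass (log2 fold change 0.03, FDR = 0.618, 95% interval −0.06 to 0.12). It was called higher with library size alone (FDR = 0.0226, the lowest of its 10 alternatives, the highest being 0.884).

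Genes that assemble glycerolipids mostly fell or did not pass. AGPAT2, which acylates lysophosphatidic acid, fell from 52.66 ± 3.91 to 37.64 ± 1.61 CPM (SD, n = 2; −0.48, edgeR FDR = 7.55e-10). LPIN2, a phosphatidic acid phosphatase, fell from 31.85 ± 0.64 to 22.26 ± 1.05 CPM (SD, n = 2; −0.52, edgeR FDR = 1.77e-08), and 525 of its exonic bases overlap unnamed gene models on the other strand. Its paralogue LPIN1 overlapped between groups (72.52 and 68.60 against 67.21 and 71.98 CPM; FDR = 0.77). LPIN3 had only 10, 16, 14 and 15 counts in the 4 libraries, and its 95% interval, −0.93 to 0.78 on the log2 scale, was too wide to show a change under 1.5-fold. GPAM, the mitochondrial acyltransferase of the first step, was the only gene of this role called higher (27.50 to 33.25 CPM; 0.28, edgeR FDR = 7.50e-04), and the call was lost without PELP1 shRNA replicate 1 (FDR = 0.0542; lowest of 10 alternatives 5.19e-06). Of the 2 enzymes that complete triacylglycerol, DGAT1 averaged 22.85 and 20.03 CPM (−0.19, FDR = 0.0453), a call lost in 9 of 10 alternatives (FDR from 0.0195 to 0.406), and DGAT2 averaged 27.00 and 24.99 CPM without passing (−0.11, FDR = 0.198). Per kilobase DGAT2 was the higher of the pair in every library, at 63.4% to 67.5% of their sum.

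All 4 of the listed genes of the lipid droplet surface were called higher, against 28.6% of all genes tested. The other droplet and lipolysis genes, given below, went both ways. PNPLA3, a droplet protein with lipase and acyltransferase activity and a known SREBP-1 target in liver, was at 8.86 and 9.06 CPM in the control libraries, against 17.17 and 15.31 CPM in the PELP1 shRNA libraries. The log2 fold change was 0.86 ± 0.10 (SE; edgeR FDR = 6.90e-11; against 1.5-fold, FDR = 0.013). The call past 1.5-fold was lost with DESeq2 (adjusted p = 1), without PELP1 shRNA replicate 1 (FDR = 0.176) and without control shRNA replicate 1 (FDR = 0.0666), and the lowest value over the alternatives was 8.66e-04. PNPLA3 lies on chromosome 22 (hg19, 44319672 to 44360368), where 148 exonic bases are shared with SAMM50 on the same strand. PNPLA2, the triglyceride lipase ATGL, was at 49.89 and 52.58 CPM with the control shRNA and at 81.93 and 76.01 CPM with the PELP1 shRNA, with no overlap. It rose by 0.62 ± 0.05 on the log2 scale (SE; edgeR FDR = 1.5e-15) and did not pass the 1.5-fold test (FDR = 0.592), and 401 of its exonic bases overlap an unnamed gene model on the other strand. The droplet coat genes PLIN2 (22.18 to 27.44 CPM; 0.31, edgeR FDR = 4.70e-04) and PLIN3 (134.7 to 149.6 CPM; 0.15, FDR = 0.00221) rose less. The PLIN3 call was lost without PELP1 shRNA replicate 1 (FDR = 0.132; lowest of 10 alternatives 7.49e-07).

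Neighbouring genes of the pathway outside the 35 are given from 4 further lists, to show whether the same steps moved elsewhere. Of 22 other genes of fatty acid synthesis and elongation, 19 were tested, of which 7 rose and 3 fell, and the median log2 fold change was 0.02 (with library size alone, 1 fell). The largest changes were those of the carbohydrate-response factor MLXIPL (1.51 to 2.26 CPM; 0.58, FDR = 0.0321, lost in 4 of 9 alternatives with FDR from 0.012 to 0.254), ACSS3 (10.87 to 15.26 CPM; 0.49) and the mitochondrial malonyl transferase MCAT (18.13 to 24.77 CPM; 0.45). The shares called higher and lower, 36.8% and 15.8%, compare with 28.6% and 29.5% of all genes tested.

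Of 32 other genes of glycerolipid and phospholipid synthesis, 27 were tested, of which 8 rose, 7 fell and 12 did not pass (median −0.003). These shares, 29.6% higher and 25.9% lower, lie near those of all genes tested. LPCAT3, which puts polyunsaturated chains into phospholipids and is a target of liver X receptors, rose past 1.5-fold with edgeR (33.81 to 58.87 CPM; 0.80; FDR against 1.5-fold = 0.00135). CDS1 (3.41 to 6.30 CPM; 0.88) and the choline kinase CHKA (21.12 to 33.04 CPM; 0.65) rose without passing that test. The exons of LPCAT3 overlap those of EMG1 on the other strand over 3096 bases.

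The 14 tested of 19 other lipid droplet and lipolysis genes moved farther in size, with a median change regardless of sign of 0.62. They went both ways, with 4 higher and 6 lower (28.6% and 42.9%, against 28.6% and 29.5% of all genes tested). Of the 4 higher, 2 were left with DESeq2, with a minimum of 5 CPM, and without either control shRNA replicate 1 or PELP1 shRNA replicate 1. PLIN4, a droplet coat protein abundant in fat cells, rose from 3.35 ± 0.20 to 16.85 ± 0.64 CPM (SD, n = 2; 2.33 on the log2 scale, edgeR FDR = 1.66e-25). The hormone-sensitive lipase LIPE rose from 5.75 ± 0.39 to 11.01 ± 0.03 CPM (SD, n = 2; 0.93, edgeR FDR = 6.01e-10). MGLL, the monoacylglycerol lipase that completes the breakdown of triacylglycerol, fell from 316.5 ± 11.42 to 136.4 ± 3.57 CPM (SD, n = 2; −1.22, edgeR FDR = 1.94e-36). Of the lipases named so far, PNPLA2, PNPLA3 and LIPE were higher and MGLL was lower. Also lower in this list were ABHD5 (−0.46, edgeR FDR = 1.94e-08) and the diacylglycerol lipase DAGLB (−0.57, edgeR FDR = 1.35e-09), named after their values were seen. The lipase genes therefore went both ways, and no order by step was tested. PLIN4 is also one of the adipocyte markers, whose defining genes ADIPOQ and LEP were at or near 0.

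Of 33 genes of fatty acid uptake and oxidation, 30 were tested, with 10 higher, 9 lower and 11 that did not pass (median 0.14). The shares of 33.3% higher and 30% lower lie near those of all genes tested. Among genes with a mean of at least 1 CPM, the largest changes were rises of the fatty acid transport proteins SLC27A6 (0.71 to 2.92 CPM; 2.03) and SLC27A5 (1.40 to 3.79 CPM; 1.43), both at low levels, and of the nuclear receptor PPARA (17.29 ± 0.60 to 34.88 ± 1.99 CPM, SD, n = 2; 1.01, edgeR FDR = 5.29e-18). FABP4, a fatty acid binding protein of fat cells and macrophages and one of the adipocyte markers above, was counted 16 and 21 times with the control shRNA and 0 and 1 times after knockdown. FABP7, its paralogue in neural progenitors and glia, averaged 1.17 and 0.53 CPM (log2 fold change −1.09, edgeR FDR = 0.0452). Its libraries overlapped between groups (1.80 and 0.54 CPM with the control shRNA, 0.70 and 0.36 CPM with the PELP1 shRNA), and the first control library carried the control mean. FABP4 and FABP7 lie under that level and are named after their values were seen.

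**Figure D4:**
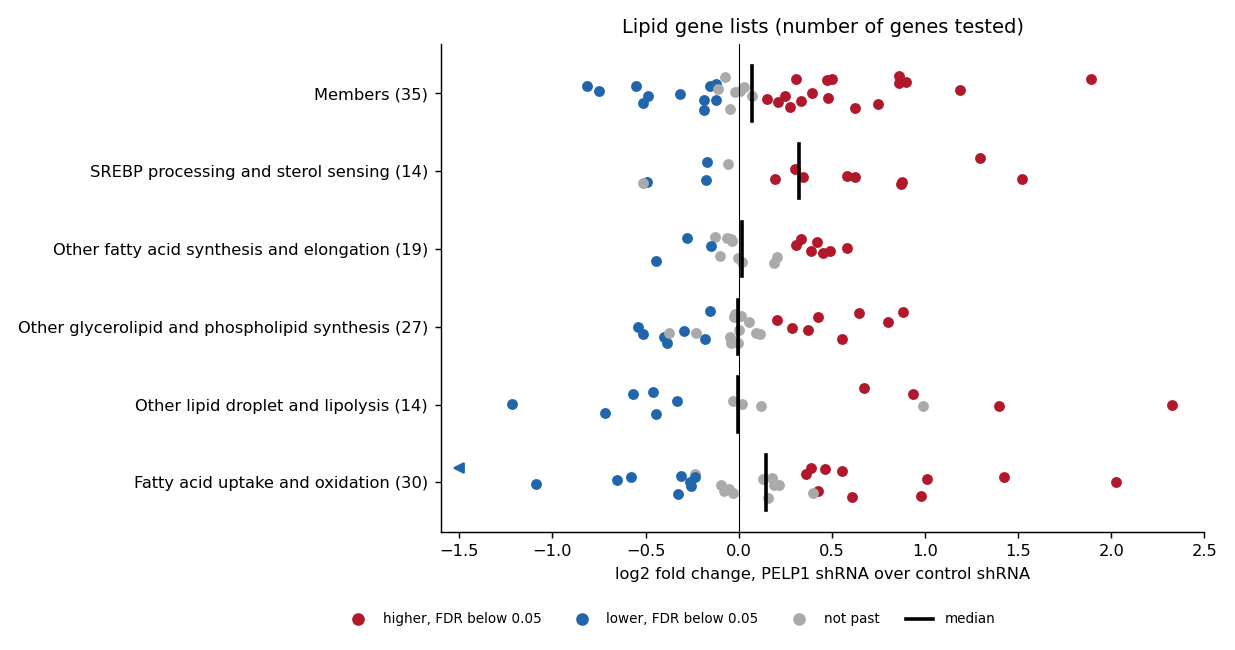
Log2 fold change (PELP1 shRNA over control shRNA, horizontal axis) of every tested gene in the 35 and in the 5 other lists, 1 point a gene, with a line at each list's median. Medians lie between −0.01 and 0.32, and 1 gene of the uptake list, FABP4, lies left of the axis limit and is drawn as an arrow.

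With an assumed biological variation of 20% in place of the 2.99% estimated from these libraries, 4 of the 35 genes kept their call: SREBF1, FADS2 (FDR = 0.00137), SCD (FDR = 0.0288) and ACSL3 (FDR = 0.0404). SREBF1 was the only one of them still past 1.5-fold (FDR = 7.07e-05). Over the 10 other alternatives, 20 of the 28 calls held in all, 13 of them higher and 7 lower, and none of the 28 changed direction.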

How the data were processed

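RNA-seq was analysed from 2 control shRNA and 2 PELP1 shRNA libraries of Daoy cells, read as 50 bp single-end reads. The files deposited by the authors hold raw counts for each gene symbol; per the submitters' processing notes the authors aligned reads to hg19 with TopHat2 2.0.8b and counted them with HTSeq. For HTSeq, neither version, strand setting nor annotation is given in the sources used here. The 5 rows that name no gene (non-unique alignments, 29.4% to 30.8% of each file; reads in no gene, 8.83% to 9.08%; ambiguous reads, 0.58% to 0.60%) were left out, so genes with near-identical copies have partial counts.

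The main test was edgeR 4.0.16 (R 4.3.3; TMM, filterByExpr, robust quasi-likelihood F test, 2-sided, Benjamini-Hochberg over 14972 genes, threshold 0.05), with glmTreat against 1.5-fold. SE is the log2 fold change divided by the root of F, and the prior count was 0.125. CPM values are TMM-scaled. The script was tested on simulated data. Per-kilobase levels used the canonical transcript of GENCODE v44 lifted to hg19, which also gave coordinates and exon overlaps. Promoters came from RefSeq. Replicate pairs differed by more than counting noise (chi-square per degree of freedom 2.47 and 2.37, against 57.68 between groups). Alternatives were DESeq2 1.42.0, other scalings and filters, leaving out each library, a replicate block and an assumed variation of 20%.

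The 35 genes, their roles, the other lists and the tests were chosen with earlier results of these data known. Values per library are given for SREBF1, FASN, SCD and genes past the FDR threshold that changed by at least 1.5-fold with a mean of at least 1 CPM. From each other list up to 3 genes with the largest change past the threshold and a mean of at least 1 CPM are named, and PELP1, SREBF2, SCAP, INSIG1, INSIG2, MBTPS1 and MBTPS2 in any case.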

Additional observations from a re-analysis of the deposited data

How the results depend on the processing

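Results are given as counts of genes higher and lower at FDR under 0.05. With upper-quartile factors 7 of the 35 genes were lower, and with library size alone 7 were lower and 0 past 1.5-fold lower (2 at an unadjusted glmTreat p under 0.05; 2 with TMM), while the SREBP list and the list of other fatty acid synthesis genes each had 1 lower. These scalings moved the median log2 fold change of all genes to 0.06 and 0.09 and the share of higher among all calls from 49.1% to 57.9% and 63.2%; for the 35 genes they gave 18 and 19 higher. With DESeq2, 0 of the 35 were past 1.5-fold lower (2 unadjusted; 2 with edgeR) and 2 other droplet genes were higher, as with at least 5 CPM in 2 libraries (2). With an assumed variation of 20% in edgeR, 4 of the 35 were higher and 0 lower (7 and 2 unadjusted). Past 1.5-fold, 1 was higher and 0 lower (3 and 0 unadjusted). At that variation the SREBP list had 3 higher and 0 lower (6 and 0 unadjusted). Other fatty acid synthesis had 0 in either direction (0 unadjusted), and other glycerolipid genes 0 in either direction (3 and 0 unadjusted). Other droplet genes had 2 higher and 1 lower, and uptake genes 3 higher and 1 lower. DESeq2 was run only with its own estimate of variation, not with the assumed 20%. It gave 15 of the 35 higher and 8 lower, and 4 and 0 past 1.5-fold. Its counts were 8 and 3 for the SREBP list, 6 and 2 for other fatty acid synthesis, and 7 and 6 for other glycerolipid genes.

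Without 1 library at a time, 13 to 17 of the 35 were higher and 8 to 10 lower, 4 to 5 were past 1.5-fold higher and 1 to 2 lower (1, ELOVL1, without PELP1 shRNA replicate 1). The SREBP list had 8 higher and 3 lower each time, other fatty acid synthesis 6 to 7 and 2 to 4, other glycerolipid genes 7 to 8 and 6 to 7, other droplet genes 2 to 4 and 6 (2 higher without control shRNA replicate 1 or PELP1 shRNA replicate 1), and uptake genes 10 to 11 and 8 to 9. The lone library left in a group was assumed to vary like the other group.

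The groups share replicate numbers, but whether same-numbered libraries were handled together is not given in the sources used here. The correlation of replicate differences between the groups was −0.153 over 11350 genes, which does not settle it. With the replicate block, 16 of the 35 were higher and 8 lower, with 5 and 2 past 1.5-fold. A crossed pairing, chosen after seeing the data, gave 17 higher and 11 lower.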

Other observations

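GFAP, an astrocyte filament gene among the neural markers, had 37.18 and 11.81 CPM in the first and second control library and 27.84 and 10.38 CPM in the first and second PELP1 shRNA library, so that it differed more between the libraries of a group than between the groups (log2 fold change −0.32, edgeR FDR = 0.82). PAX6, a neural transcription factor in the same list, rose from 15.23 and 16.87 CPM to 22.60 and 23.98 CPM (edgeR FDR = 1.96e-07).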
